A study of Mus musculus with 6 samples.

Results

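The genes described here encode the mitochondrial respiratory chain and ATP synthase, the machinery of oxidative phosphorylation. They were chosen by symbol (the Nduf, Sdh, Uqcr, Cox4 to Cox8 and Atp5 genes of the nucleus and the mt-Nd, mt-Co, mt-Atp and mt-Cytb genes of mitochondrial DNA) and had to reach 10 counts over the 6 libraries. Of 34590 gene symbols in the files, 100 matched and 98 reached that minimum, 85 of them nuclear and 13 mitochondrially encoded. Cox7b2 and Cox8c, which encode testis forms of complex IV subunits, had 0 counts in all 6 libraries, and the lowest gene inside the minimum was Atp5l-ps1 with 58 counts. Atp5l-ps1 was also the only one that failed the filter on low counts, so 97 genes were tested. RNA was measured in skin biopsies of 3 Tnip1-/- mice and 3 Tnip1+/+ mice, called knockout and wild type below. All 6 animals were C57BL/6 and received imiquimod, a Toll-like receptor agonist that inflames mouse skin, on the skin surface for 2 days, so neither group is untreated, and age was not given. Tnip1 encodes a ubiquitin-binding protein that restrains NF-kB signalling, and the comparison asks which transcripts differ between treated skin with and without it. The labels do not say which cells carry the deletion or which part of the gene it removes.

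Oxidative phosphorylation passes electrons from NADH through complex I, or from succinate through complex II, to coenzyme Q, then through complex III and cytochrome c to complex IV, which reduces oxygen. Complexes I, III and IV pump protons across the inner mitochondrial membrane, and complex V, the ATP synthase, lets them flow back to make ATP. Complexes I, III, IV and V combine subunits made from nuclear genes with core subunits made from mitochondrial DNA, whose mRNAs are cut from long transcripts of the 2 strands, whereas complex II is wholly nuclear. Skeletal muscle is rich in mitochondria and uses its own forms of several complex IV subunits, whereas epidermis is known for a large share of glycolysis.

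Libraries held 19529970 to 25864730 gene counts in knockout skin and 24701074 to 31005554 in wild type skin (n = 3 each). Levels below are CPM (gene counts set to a common library size with TMM factors) and are compared only within a gene. Each log2 fold change is positive where knockout skin was higher than wild type skin and has its standard error (SE), and a gene was called where the adjusted p of edgeR's quasi-likelihood test (Benjamini-Hochberg over 16691 genes) was under 0.05. Tnip1 stood at 2.03, 1.57 and 1.83 CPM in knockout skin and at 28.1, 25.1 and 26.0 CPM in wild type skin (log2 -3.87, SE 0.16, edgeR adjusted p = 5.87e-05). The skin also differed in the markers of its cell types, and in bulk tissue fewer cells of a type and less RNA per cell cannot be told apart. Keratinocyte markers (3 of 5 higher, 1 lower) summed to 21040 to 24519 CPM in knockout skin and to 7752 to 12827 CPM in wild type skin. Of 6 tested neutrophil markers 5 were higher, and the sum was 7407 to 12078 CPM in knockout skin against 35.5 to 179.7 CPM in wild type skin, with Ly6g at 0 counts in 4 libraries. Most of that sum was S100a8 and S100a9, which inflamed keratinocytes also make, while Csf3r (log2 2.29), Cxcr2 (3.07) and Retnlg (3.90) rose by less and Mmp9 (0.86) was not called. Adipocyte markers (2 of 7 lower) summed to 72.9 to 1281 CPM in knockout skin, lowest in replicate 2, and to 1979 to 3834 CPM in wild type skin. Skeletal muscle markers are given beside the mitochondrial mRNAs. Library names in the labels carry 1 prefix for all knockout libraries and another for all wild type libraries, so any batch these mark cannot be told apart from genotype. Sex was not given, but Ddx3y exceeded Xist in 2 of 3 knockout libraries and in 1 of 3 wild type libraries, so both groups mixed the 2 patterns.

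The nuclear and the mitochondrially encoded genes of the respiratory chain moved in opposite directions. Of 84 tested nuclear genes, 44 rose in knockout skin, 7 fell and 33 were not called, with a median log2 fold change of 0.42. All 13 mitochondrially encoded mRNAs fell, with a median of -1.58. Over all genes tested, 22.3% were called higher and 22.7% lower (45.1% either way), and the median log2 fold change was -0.04. The knockout libraries lay wholly above the wild type libraries for 51 nuclear genes and wholly below for 11, whereas this held for 29.2% and 30.5% of all genes. They lay wholly below for each of the 13 mitochondrial mRNAs. Atp5l-ps1, the member that was not tested, had 0.129, 0.0424 and 0.0522 CPM in knockout skin and 0.36, 0.782 and 0.666 CPM in wild type skin. Of the 7 nuclear genes that fell, 4 encode tissue-restricted forms of complex IV subunits (Cox6a2, Cox7a1, Cox8b and Cox6b2), 2 are not subunits (Atp5l2 and Atp5sl) and 1 is a complex I subunit (Ndufa13). Among the 73 nuclear subunits that are neither tissue-restricted nor only related by name, 44 rose and 1 fell. The keratinocyte and neutrophil marker sums given above were higher in knockout skin as well, and their part in the nuclear result was not tested.

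**Figure D1:**
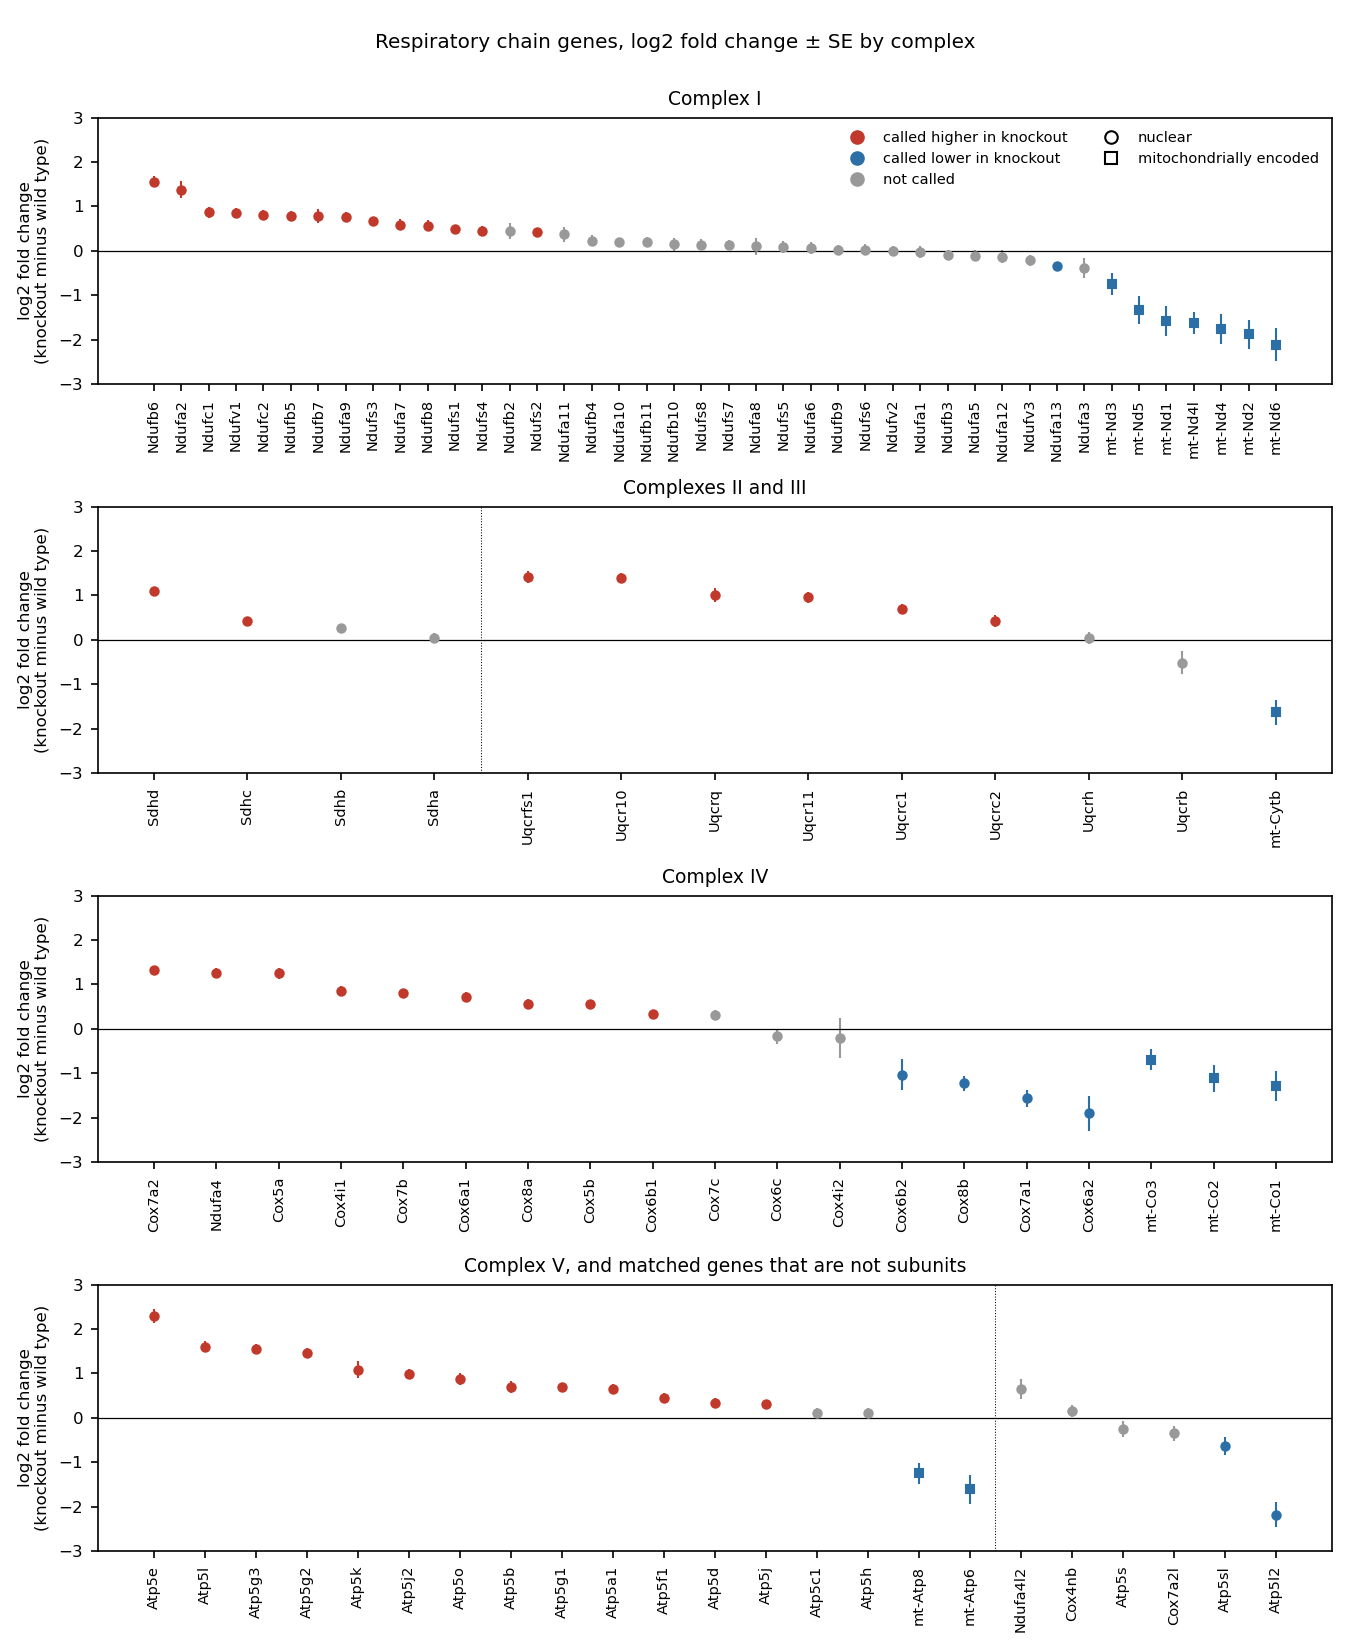
Log2 fold change (knockout minus wild type) of the 97 tested genes by complex, with bars for SE, circles for nuclear and squares for mitochondrially encoded genes, and colour for the call. Within every complex that draws on both genomes the squares lie below 0, between -2.11 and -0.69, while most nuclear subunits lie above 0, up to 2.29 for Atp5e.

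In reads as deposited, the 13 mitochondrial mRNAs took 0.872%, 1.05% and 1.04% of gene counts in knockout skin and 1.74%, 3.64% and 2.38% in wild type skin. The nuclear genes took 0.824% to 0.894% of gene counts in knockout skin and 0.643% to 0.700% in wild type skin. The count ratio of mitochondrially encoded to nuclear genes was thus 1.06, 1.26 and 1.16 in knockout skin and 2.71, 5.57 and 3.39 in wild type skin. The groups did not overlap in any of these 3 measures. Wild type replicate 2 had the largest mitochondrial share and the largest ratio of all libraries.

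Nuclear respiratory genes are known to be read from compact promoters, often with sites for NRF1, GABP (an ETS factor), YY1 and the estrogen-related receptors (ERR). RefSeq promoters (GRCm38.p6, 250 bases before to 50 after the gene's start) were at hand for 68 of the 85 nuclear genes, with 74 promoters. They were searched on both strands for GCGCATGC (NRF1), CCGGAAGT (ETS), AAGATGGC (YY1) and TCAAGGTCA (ERR), and no 2 matches overlap in the windows shown. At least 1 motif was found in 37.8% of these promoters, against 11.3% of the 21263 promoters of protein-coding genes in the same table. NRF1 letters stood in 13.5% of the members' promoters and 3.52% of all, YY1 letters in 16.2% and 3.05%, ERR letters in 2.70% and 0.334%, and ETS letters in 6.76% and 5.15%. By call, 43.6% of 39 promoters of genes that rose held a motif, against 31.0% of 29 promoters of genes not called. Among genes that fell it was 33.3% of 6 promoters. The 2 promoters with a match there belong to 1 of the 5 genes, Atp5sl, which is not a subunit. The 5 windows below show each kind of motif in a gene described further on, with matches in capitals, written 5′ to 3′ on the gene's strand. Atp5g3 and Sdhd are the members with an ERR match, Uqcr11 has an ETS and an NRF1 match, Atp5l has an NRF1 match and Ndufc1 a YY1 match. They were picked from genes that rose, so they do not show how motifs relate to direction. The windows lie at chr2:73911277-73911576 for Atp5g3, chr9:50603800-50604099 for Sdhd, chr10:80406772-80407071 for Uqcr11, chr9:44920693-44920992 for Atp5l and chr3:51408906-51409205 for Ndufc1, all on the minus strand.
Atp5g3: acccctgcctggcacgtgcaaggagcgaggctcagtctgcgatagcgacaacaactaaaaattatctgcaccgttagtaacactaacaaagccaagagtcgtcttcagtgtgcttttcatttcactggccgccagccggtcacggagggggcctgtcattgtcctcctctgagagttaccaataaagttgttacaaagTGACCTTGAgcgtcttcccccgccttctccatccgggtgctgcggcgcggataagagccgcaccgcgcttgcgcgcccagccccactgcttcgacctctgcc
Sdhd: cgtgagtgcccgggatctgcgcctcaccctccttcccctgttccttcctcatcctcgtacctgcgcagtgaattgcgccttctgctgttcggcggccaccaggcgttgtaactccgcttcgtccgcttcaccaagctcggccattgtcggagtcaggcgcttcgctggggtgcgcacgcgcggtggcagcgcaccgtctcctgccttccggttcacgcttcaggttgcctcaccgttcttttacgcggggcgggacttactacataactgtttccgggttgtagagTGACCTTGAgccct
Uqcr11: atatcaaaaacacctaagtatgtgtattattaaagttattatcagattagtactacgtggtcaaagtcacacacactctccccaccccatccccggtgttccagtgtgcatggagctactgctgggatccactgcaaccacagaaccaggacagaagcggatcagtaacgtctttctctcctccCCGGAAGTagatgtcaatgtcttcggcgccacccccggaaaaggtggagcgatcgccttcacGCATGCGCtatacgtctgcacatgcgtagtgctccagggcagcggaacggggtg
Atp5l: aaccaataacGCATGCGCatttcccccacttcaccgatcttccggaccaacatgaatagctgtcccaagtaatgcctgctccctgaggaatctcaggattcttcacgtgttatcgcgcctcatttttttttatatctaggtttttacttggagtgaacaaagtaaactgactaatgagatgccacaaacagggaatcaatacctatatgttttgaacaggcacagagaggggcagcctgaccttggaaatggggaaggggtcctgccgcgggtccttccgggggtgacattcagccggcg
Ndufc1: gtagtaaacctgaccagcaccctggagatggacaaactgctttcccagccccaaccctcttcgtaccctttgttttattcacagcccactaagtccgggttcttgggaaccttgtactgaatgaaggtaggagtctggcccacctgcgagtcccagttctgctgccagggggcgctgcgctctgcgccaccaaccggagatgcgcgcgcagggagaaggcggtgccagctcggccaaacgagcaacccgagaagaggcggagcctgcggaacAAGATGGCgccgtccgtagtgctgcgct
In Atp5g3 the ERR match began 52 bases before the start, and in Sdhd 36 bases after it. In Uqcr11 the ETS match began 66 bases and the NRF1 match 4 bases before the start. The NRF1 match of Atp5l began 240 bases before the start, and the YY1 match of Ndufc1 began 22 bases after it. A match is only a run of letters, and binding was not measured here.

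All 13 mRNAs of mitochondrial DNA were lower in knockout skin, by 0.69 to 2.11 on the log2 scale. They encode 7 subunits of complex I, cytochrome b of complex III, 3 catalytic-core subunits of complex IV and 2 subunits of ATP synthase. The most abundant by counts, mt-Co1 (the subunit that reduces oxygen), stood at 5072, 5476 and 5594 CPM in knockout skin and at 8399.9, 19766 and 11369 CPM in wild type skin (log2 -1.29, SE 0.34, edgeR adjusted p = 0.0206). The calls of mt-Co1 and mt-Co2 ended without any 1 of the 3 knockout libraries and with sex as a covariate. The knockout libraries lay close together, whereas the highest wild type library had more than the other 2 by a wide margin. The same order of wild type libraries, with replicate 2 highest, held for all 13 mRNAs. mt-Nd6, the only one of the 13 read from the other strand, was at 18.1, 15.5 and 16.3 CPM in knockout skin and at 39.6, 114 and 61.6 CPM in wild type skin, and had the largest change (log2 -2.11, SE 0.37, edgeR adjusted p = 0.00478).

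The other complex I mRNAs followed it. mt-Nd2 had 134, 156 and 128 CPM in knockout skin, against 328, 807 and 406 CPM in wild type skin (log2 -1.88). mt-Nd4 had 182, 207 and 167 CPM in knockout skin, against 379, 979 and 511 CPM in wild type skin (log2 -1.75). Its overlapping neighbour mt-Nd4l fell by 1.62, mt-Nd1 by 1.58 and mt-Nd5 by 1.33 on the log2 scale. Cytochrome b (mt-Cytb), the electron-carrying core of complex III, had 395, 443 and 385 CPM in knockout skin and 816, 1766 and 1200.2 CPM in wild type skin (log2 -1.63, SE 0.28, edgeR adjusted p = 0.00454). The ATP synthase mRNA mt-Atp6, for the proton channel subunit a, fell by 1.61 and the overlapping mt-Atp8 by 1.25 on the log2 scale. mt-Co2, for the subunit that takes electrons from cytochrome c, fell by 1.11 on the log2 scale.

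The smallest changes were those of mt-Co3 and mt-Nd3, neighbours on mitochondrial DNA. mt-Co3 stood at 1655, 1864 and 1838 CPM in knockout skin and at 2141, 3757 and 2756 CPM in wild type skin (log2 -0.69, SE 0.23, edgeR adjusted p = 0.0459). mt-Nd3 stood at 282, 285 and 269 CPM in knockout skin and at 323, 666 and 418 CPM in wild type skin (log2 -0.75, SE 0.25, edgeR adjusted p = 0.0475). The groups did not overlap for either gene, but both calls ended in 5 of the 6 fits with 1 library left out, all but that without wild type replicate 1. Both also ended with sex as a covariate or the replicate block. The call of mt-Nd3 ended as well with DESeq2 size factors and with limma voom, each of which left 12 of the 13 mRNAs lower. Among the 6 fits the smallest values of both genes came without wild type replicate 2 (mt-Co3 -0.46, mt-Nd3 -0.41). Without that library the median of the 13 mRNAs was -1.15 and mt-Co2 stood at -0.71. The makeup of the mitochondrial mRNA pool shifted with this. mt-Co3 made up 17.0% to 17.3% of the 13 mRNAs' counts in knockout skin and 10.3% to 13.2% in wild type skin, and mt-Nd3 made up 2.54% to 2.9% in knockout skin and 1.82% to 2.0% in wild type skin. mt-Nd6 was 0.142% to 0.186% of the pool in knockout skin and 0.245% to 0.313% in wild type skin. The share of mt-Co1, at 50.3% to 52.8% in knockout skin and 51.9% to 54.0% in wild type skin, overlapped between the groups.

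**Figure D2:**
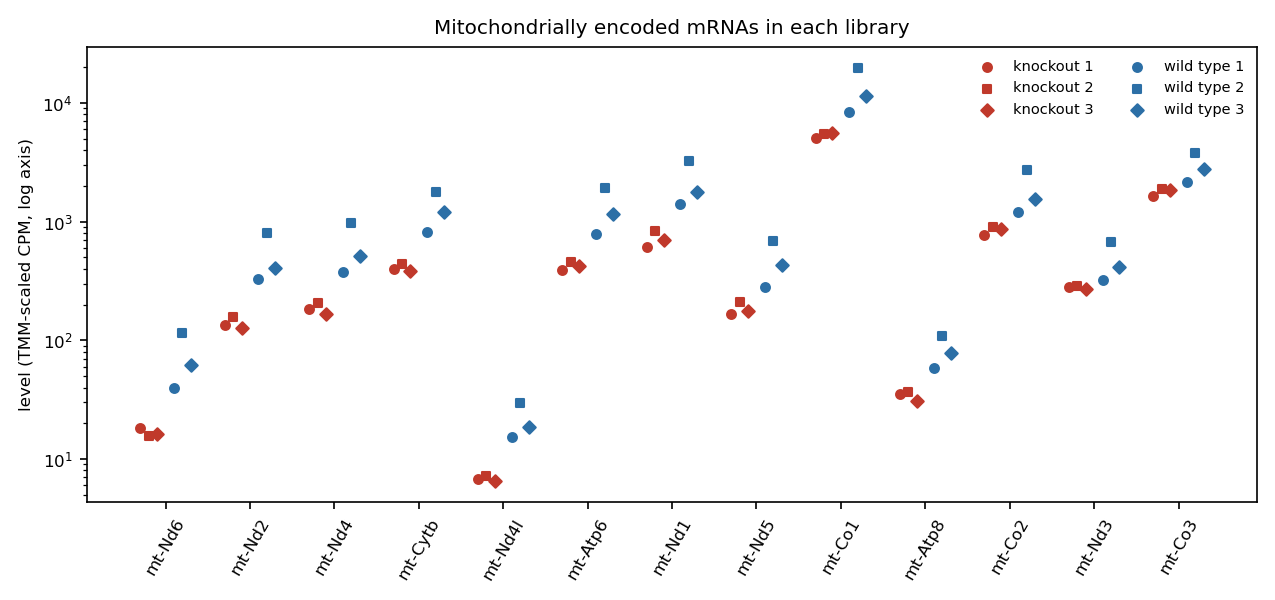
Level (TMM-scaled CPM, log axis) of each of the 13 mitochondrially encoded mRNAs in each library, knockout in red and wild type in blue, ordered from the largest to the smallest decrease. All red points lie below all blue points for each gene, and wild type replicate 2 (blue squares) is the highest point each time, for instance 19766 CPM for mt-Co1.

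The 2 mitochondrial ribosomal RNAs, which come from the start of the same heavy-strand transcript, were not called. mt-Rnr2 was at 11595, 12602 and 9506 CPM in knockout skin and at 13979, 23111 and 18933 CPM in wild type skin (log2 -0.73, SE 0.28, edgeR adjusted p = 0.0693). mt-Rnr1 was at 1106, 1120.2 and 814 CPM in knockout skin and at 1247, 1521 and 1657 CPM in wild type skin (log2 -0.54, SE 0.19, edgeR adjusted p = 0.0542). The groups did not overlap for either, but the libraries were depleted of ribosomal RNA, and how evenly this removed the mitochondrial kind was not tested. Gm10925, chosen after its values were seen, is a nuclear pseudogene that RefSeq lists with mt-Atp6 among its synonyms. It had 693, 829 and 754 CPM in knockout skin and 1443, 3506 and 2111 CPM in wild type skin (log2 -1.63), more than mt-Atp6 itself in each library, so reads of mt-Atp6 may be split between both symbols.

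The markers of skeletal muscle, the tissue under the dermis whose fibres hold many mitochondria, were lower too. Of the 13 markers 12 fell and 1 was not called, with a median log2 fold change of -1.55, and none was at 0 in any library. Their summed level was 5515, 3723 and 5139 CPM in knockout skin and 11144, 19995 and 12061 CPM in wild type skin. The summed level of the 13 mitochondrial mRNAs was 9718, 10888 and 10604 CPM in knockout skin and 16173, 36571 and 21727 CPM in wild type skin. In both sums wild type replicate 2 was the highest library, as it was in the adipocyte (3834 CPM) and endothelial (252 CPM) sums. Among the knockout libraries the 2 orders were reversed, with replicate 2 lowest in the muscle sum and highest in the mitochondrial sum. Muscle was not the only tissue whose markers were lower. The sebocyte sum (3 of 4 lower, median -2.09) was 57.5 to 117 CPM in knockout skin and 208 to 328 CPM in wild type skin. The smooth muscle sum (3 of 3 lower, median -0.97) was 171 to 189 CPM in knockout skin and 302 to 377 CPM in wild type skin. In the fibroblast list 2 of 5 were lower (median -0.82). Its sum was 3544 to 4417 CPM in knockout skin and 11332, 5990.1 and 4725 CPM in wild type skin. Wild type replicate 1 was highest there, with Col1a1 at 2354 CPM, against 180.3 and 317 CPM in replicates 2 and 3. Col1a1 stood at 537, 419.6 and 368 CPM in knockout skin and was not called. Col1a2 (log2 -1.29) and Pdgfra (0.37) were not called either. The adipocyte list had a median of -1.74. The part of these in the mitochondrial result was not tested. When the muscle score was a covariate in the fit, 135 genes were called in all, 0 of the 13 mitochondrial mRNAs and 0 nuclear members among them, with medians of -0.17 for the mitochondrial mRNAs and 0.56 for the nuclear genes. The score does not overlap between the genotypes, so its part and that of genotype cannot be told apart.

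**Figure D3:**
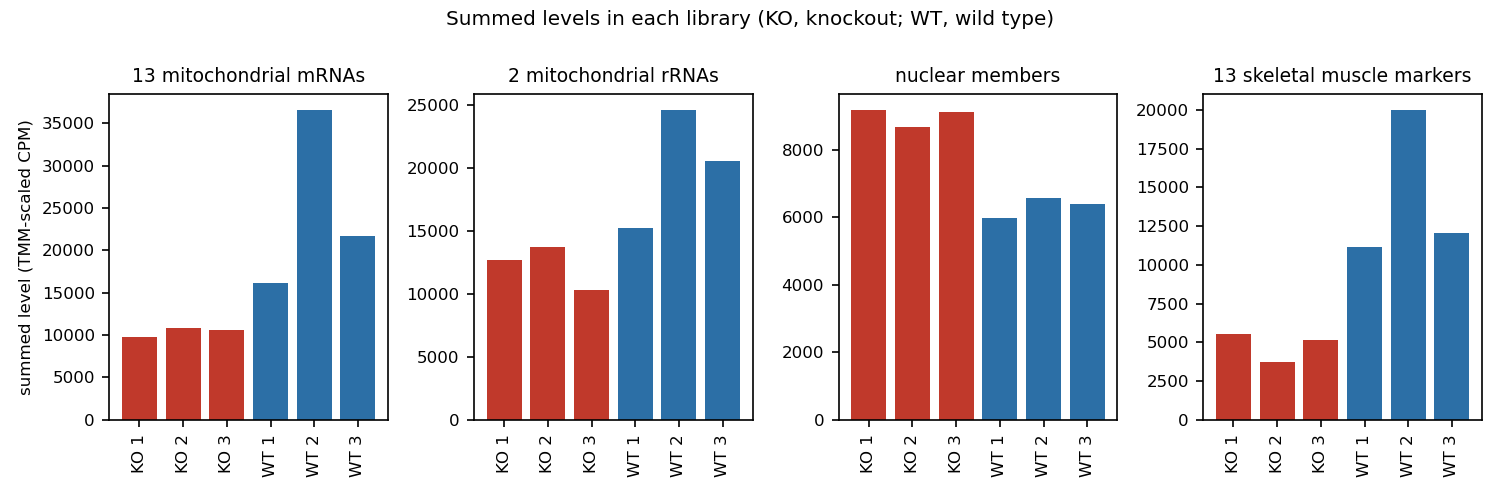
Summed level (TMM-scaled CPM, each panel with its own axis from 0) of the 13 mitochondrial mRNAs, the 2 mitochondrial rRNAs, the 85 nuclear members and 13 skeletal muscle markers in each library (KO, knockout; WT, wild type). The nuclear sum is higher in knockout skin, 8667 to 9188 against 5976 to 6562 CPM, whereas the other 3 sums are lower.

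Complex I, the NADH dehydrogenase, showed the smallest nuclear median of the complexes that draw on both genomes. Of its 35 nuclear subunits 14 rose, 1 fell and 20 were not called, with a median log2 fold change of 0.21. By symbol, the Ndufv and Ndufs genes, which include the nuclear catalytic core and some accessory subunits, had 5 of 11 higher and a median of 0.14. The accessory Ndufa genes had 3 of 12 higher, 1 lower and a median of 0.09, and the Ndufb and Ndufc genes had 6 of 12 higher and a median of 0.51. Ndufb6, a membrane-arm subunit, stood at 47.0, 39.9 and 43.8 CPM in knockout skin and at 15.7, 13.6 and 15.0 CPM in wild type skin (log2 1.56, SE 0.12, edgeR adjusted p = 3.96e-04). Ndufa2, an accessory subunit of the matrix arm, stood at 42.6, 38.2 and 38.8 CPM in knockout skin and at 18.7, 10.9 and 16.1 CPM in wild type skin (log2 1.38). The 2 Ndufc genes rose too, Ndufc1 by 0.87 and Ndufc2 by 0.81 on the log2 scale. Ndufv1, which holds the NADH-binding site, rose by 0.85 and Ndufb5 by 0.79. The only nuclear subunit that fell was Ndufa13, also known as Grim19, with 58.8, 53.4 and 60.2 CPM in knockout skin and 68.4, 75.2 and 75.0 CPM in wild type skin (log2 -0.34, SE 0.10, edgeR adjusted p = 0.032). That call ended without any 1 of the libraries except wild type replicate 1 (log2 -0.37 to -0.27 over the 6 fits). Ndufa3, chosen after its values were seen, was high in wild type replicate 2 alone, with 38.2, 38.0 and 38.4 CPM in knockout skin and 39.9, 70.3 and 39.4 CPM in wild type skin (log2 -0.39, not called).

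Complex II, the succinate dehydrogenase that also serves the citric acid cycle, had 2 of 4 subunits higher. Sdhd, which encodes a membrane anchor subunit, stood at 93.7, 88.1 and 96.9 CPM in knockout skin and at 43.4, 43.9 and 44.0 CPM in wild type skin (log2 1.09, SE 0.10, edgeR adjusted p = 5.79e-04). Sdhc, the other anchor, stood at 67.8, 69.3 and 65.3 CPM in knockout skin and at 49.0, 51.3 and 49.5 CPM in wild type skin (log2 0.43, SE 0.09, edgeR adjusted p = 0.01). Replicates of both genes agreed closely and the groups lay apart. The 2 catalytic subunits were not called. The iron-sulphur subunit gene Sdhb had 78.1, 69.6 and 78.4 CPM in knockout skin and 59.7, 66.6 and 62.0 CPM in wild type skin (log2 0.26, edgeR adjusted p = 0.0753), and the flavoprotein gene Sdha had 177, 155 and 170.3 CPM in knockout skin and 147, 179 and 163 CPM in wild type skin (log2 0.04, edgeR adjusted p = 0.784). With library totals in place of TMM factors the call of Sdhc ended (1 of 4 higher).

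Complex III, which passes electrons from coenzyme Q to cytochrome c, had 6 of 8 nuclear subunits higher and none lower, with a median of 0.83. Uqcrfs1, the gene of the Rieske iron-sulphur protein, stood at 129, 107 and 117 CPM in knockout skin and at 48.9, 38.2 and 46.2 CPM in wild type skin (log2 1.41, SE 0.14, edgeR adjusted p = 7.59e-04). The small subunit gene Uqcr10 stood at 91.7, 85 and 88.6 CPM in knockout skin and at 35.5, 30.9 and 34.6 CPM in wild type skin (log2 1.39, SE 0.11). Levels in knockout skin were 2.65 and 2.63 times those in wild type skin. Uqcrq rose by 1.01, Uqcr11, whose promoter is shown above, by 0.96 and the core subunit gene Uqcrc1 by 0.70 on the log2 scale. The other core gene, Uqcrc2, rose by 0.42 (SE 0.13, edgeR adjusted p = 0.0311). Its call ended without wild type replicate 1 or 3 or any 1 knockout library (log2 0.35 to 0.53 over the 6 fits). The call also ended with library totals, upper-quartile factors, the stricter filter and the replicate block. The 2 not called, chosen after their values were seen, were Uqcrh (log2 0.04) and Uqcrb. Uqcrb had 119, 123 and 125 CPM in knockout skin and 125, 250.2 and 148 CPM in wild type skin, so that wild type replicate 2 stood apart (log2 -0.51, and -0.16 without it). Cyc1, the complex III cytochrome gene that the symbol rule does not cover, stood at 115, 89.5 and 102 CPM in knockout skin and at 39.2, 31.1 and 37.9 CPM in wild type skin (log2 1.5, chosen after its values were seen).

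Complex IV, cytochrome c oxidase, divided by isoform. Of the 11 subunits used in most tissues 9 rose and none fell, with a median log2 fold change of 0.72. Of the 5 tested tissue-restricted forms 4 fell and 1 was not called. Cox7a2, the general form of subunit VIIa, stood at 130.5, 121 and 124 CPM in knockout skin and at 50.3, 46.3 and 54.3 CPM in wild type skin (log2 1.32, SE 0.10, edgeR adjusted p = 4.31e-04). Its muscle form Cox7a1 stood at 5.34, 3.69 and 5.22 CPM in knockout skin and at 13.2, 15.9 and 12.8 CPM in wild type skin (log2 -1.56, SE 0.19, edgeR adjusted p = 0.00166). The 2 groups lay apart for both genes, in opposite directions, and the count ratio of Cox7a1 to Cox7a2 was 0.0304 to 0.0421 in knockout skin and 0.237 to 0.343 in wild type skin.

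The same held for subunits VIa and VIII. Cox6a1, the general form of VIa, stood at 94.1, 88.6 and 90.8 CPM in knockout skin and at 56.5, 48.2 and 61.6 CPM in wild type skin (log2 0.72, SE 0.12). The muscle form Cox6a2 stood at 19.7, 13.7 and 16.3 CPM in knockout skin and at 35.4, 103 and 47.2 CPM in wild type skin (log2 -1.90, SE 0.40, edgeR adjusted p = 0.00902, and -1.32 without wild type replicate 2). The count ratio of Cox6a2 to Cox6a1 was 0.154 to 0.209 in knockout skin and 0.627, 2.13 and 0.766 in wild type skin. Cox8a, the general form of VIII, rose by 0.57 and its muscle form Cox8b fell by 1.22 on the log2 scale, with a count ratio of Cox8b to Cox8a of 0.067 to 0.094 in knockout skin and 0.260 to 0.314 in wild type skin. These 3 muscle forms stand beside the skeletal muscle markers above, which fell by a median of 1.55. Brown fat also uses Cox7a1 and Cox8b. Of its markers, Cidea fell by 1.11 on the log2 scale, Elovl3 stood at 0.75, not called, and Ucp1, too low to test, had 0.0431, 0.0424 and 0.104 CPM in knockout skin and 0, 0.238 and 0.074 CPM in wild type skin.

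**Figure D4:**
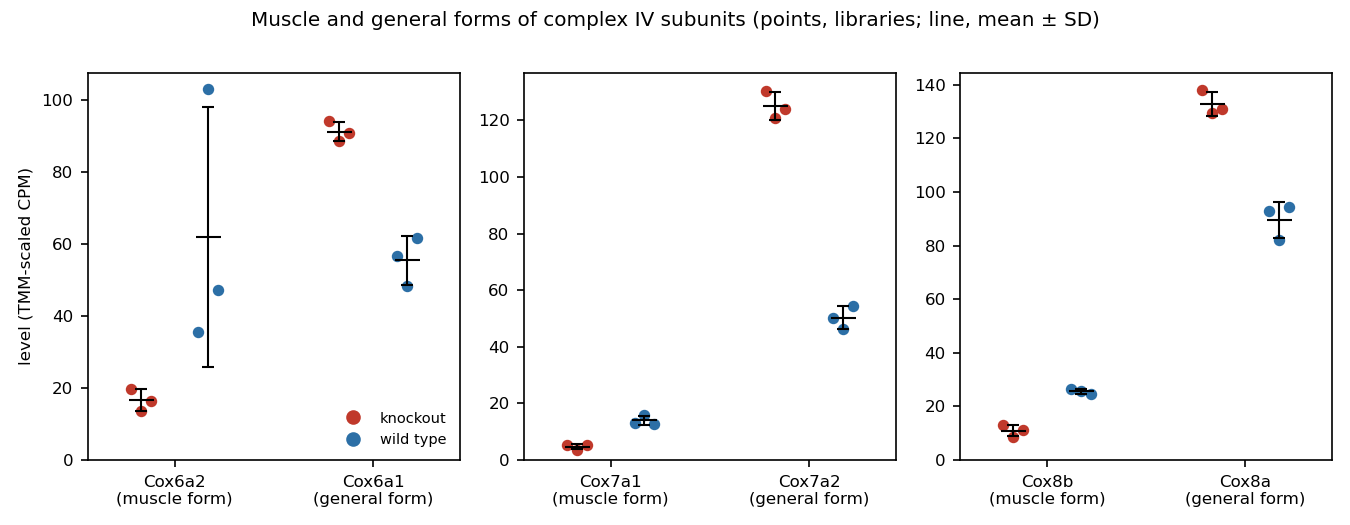
Level (TMM-scaled CPM, axis from 0) of the muscle and the general form of 3 complex IV subunits, with knockout in red to the left and wild type in blue to the right for each gene, points for libraries and a line for mean ± SD (n = 3). The muscle form is lower and the general form higher in knockout skin in each panel, for example 3.69 to 5.34 against 12.8 to 15.9 CPM for Cox7a1.

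The other restricted forms were scarce. Cox6b2, the testis form of subunit VIb, had 0.302, 0.339 and 0.47 CPM in knockout skin and 0.54, 0.884 and 0.851 CPM in wild type skin (log2 -1.03, SE 0.35, edgeR adjusted p = 0.0469), whereas its general form Cox6b1 rose by 0.33. The Cox6b2 call rests on 91 counts over the 6 libraries, and the calls of both genes ended in 5 of the 6 fits with 1 library left out. Both calls also ended with no filter and with the replicate block. That of Cox6b1 ended as well with library totals or upper-quartile factors, and that of Cox6b2 with the DESeq2 Wald test, limma voom or sex as a covariate. Cox4i2, the lung and hypoxia form of subunit IV, had 0.776, 0.551 and 0.992 CPM in knockout skin and 0.42, 1.05 and 1.22 CPM in wild type skin, with overlapping groups (log2 -0.21, SE 0.45). Its general form Cox4i1 stood at 211, 185 and 202 CPM in knockout skin and at 119, 98.5 and 114 CPM in wild type skin (log2 0.85, SE 0.12). Ndufa4, a subunit once assigned to complex I, stood at 313, 303 and 268 CPM in knockout skin and at 132, 119 and 118 CPM in wild type skin (log2 1.26, SE 0.12, edgeR adjusted p = 6.63e-04). Cox5a rose by 1.25 and Cox7b by 0.80 on the log2 scale. Cox5b (0.56), Cox7c (0.31, not called) and Cox6c (-0.17, not called), chosen after their values were seen, complete the complex.

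Complex V, the ATP synthase, had the largest share of nuclear subunits higher, 13 of 15, with none lower and a median of 0.70. Atp5e, the gene of the epsilon subunit in the central stalk, stood at 112, 87.6 and 91.8 CPM in knockout skin and at 21.3, 17.5 and 20.7 CPM in wild type skin (log2 2.29, SE 0.15, edgeR adjusted p = 2.22e-04), the largest change of any member with TMM factors. With library totals Atp5e stood at 2.13, below Atp5l2 (-2.34) and mt-Nd6 (-2.25) in size. Atp5l, for subunit g of the membrane part, stood at 144, 143 and 139.9 CPM in knockout skin and at 53.8, 41.1 and 46.2 CPM in wild type skin (log2 1.60, SE 0.12). The groups lay far apart for both genes. All 3 genes of the proton-carrying ring subunit c, which encode the same mature protein, rose. Atp5g3 stood at 193, 161 and 173 CPM in knockout skin and at 59.8, 57.7 and 62.6 CPM in wild type skin (log2 1.55, SE 0.11, edgeR adjusted p = 3.12e-04). Atp5g2 stood at 84.1, 86.7 and 93.7 CPM in knockout skin and at 30.9, 29.1 and 35.9 CPM in wild type skin (log2 1.46, SE 0.12). Atp5g1 stood at 98.4, 95.5 and 92.6 CPM in knockout skin and at 60.5, 54.7 and 62.7 CPM in wild type skin (log2 0.69, SE 0.10). The membrane subunits Atp5k and Atp5j2 rose by 1.08 and 0.98 on the log2 scale. The catalytic beta subunit gene Atp5b and the alpha subunit gene Atp5a1, chosen after their values were seen, rose by 0.70 and 0.65. The gamma subunit gene Atp5c1 (0.12) and the stator gene Atp5h (0.10), named on the same basis, were not called. Without 1 library 10 to 12 of the 15 were higher.

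Of the 7 genes that share the symbols without being subunits, 6 were tested, 2 fell and none rose. Atp5l2, which RefSeq lists as a pseudogene, had 0.646, 0.551 and 0.836 CPM in knockout skin and 3.60, 2.55 and 3.07 CPM in wild type skin (log2 -2.18, SE 0.28, edgeR adjusted p = 0.00174), the reverse of Atp5l, and reads may be split between such copies. Atp5sl, an assembly factor of complex I despite its symbol, fell by 0.64 (edgeR adjusted p = 0.0387). Its call ended when replicate 2 or replicate 3 of either genotype was left out, with limma voom, with the replicate block and with sex as a covariate. Cox7a2l, which joins complexes III and IV into supercomplexes, had 99.2, 117 and 129 CPM in knockout skin and 122, 172 and 144 CPM in wild type skin (log2 -0.35, not called). Ndufa4l2, a hypoxia-induced paralog of Ndufa4, had 36.8, 52.7 and 69.1 CPM in knockout skin and 38.5, 29.3 and 33.2 CPM in wild type skin (log2 0.65, edgeR adjusted p = 0.0572).

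The genes that assemble the complexes were called in both directions. The shares called higher were 33.3% for complex I, 0% for complexes II and III, 42.9% for complex IV and 40% for complex V. The shares called lower were 0%, 50%, 0% and 20% in the same order. Over all genes tested 22.3% were higher and 22.7% lower. The lists hold only 5 to 14 tested genes, so each share rests on few calls. Of 14 tested complex IV assembly genes 6 rose and none fell, among them Higd1a, a hypoxia-inducible partner of complex IV, with 103, 117 and 153 CPM in knockout skin and 29.7, 25.5 and 29.9 CPM in wild type skin (log2 2.13, SE 0.17). Lrpprc, which stabilises mitochondrial mRNAs, rose by 0.82, and Cox10 and Cox11, needed for the haem and copper of complex IV, rose by 0.90 and 0.92. Of 9 complex I assembly genes 3 rose and none fell (Foxred1 0.96, Ndufaf4 0.86, Nubpl 0.69), and Tmem126b stood at -0.51, not called. Of 6 complex II and III assembly genes none rose and 3 fell, namely Lyrm7 (-1.52), Bcs1l (-0.44) and Ttc19 (-0.51), all of which act on the Rieske step of complex III, while Sdhaf2 stood at 0.27, not called. Of 5 genes that assemble or regulate ATP synthase, Atpaf2 (0.57) and Tmem70 (0.36) rose and the inhibitor gene Atpif1 fell by 0.77, whereas Usmg5 stood at -0.55, not called. Among 13 genes of the mobile carriers and coenzyme Q synthesis 6 rose (46.2%) and none fell. Cycs, the cytochrome c gene, led them with 219, 182 and 185 CPM in knockout skin and 67.6, 109.6 and 71.2 CPM in wild type skin (log2 1.24, SE 0.20). Pdss1 (1.13) and Coq4 (0.87), both of coenzyme Q synthesis, rose too. Ndufab1 (0.38), counted among the 6, encodes the mitochondrial acyl carrier protein, which is also a subunit of complex I.

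Genes upstream of the chain were called, in either direction, in shares near or below that of all genes. Of 18 genes of the citric acid cycle and the pyruvate dehydrogenase complex 5 rose and none fell (27.8% higher, with a median of 0.01). Idh3a (0.54), Fh1 (0.45), Dlst (0.44) and Mdh2 (0.40) were among those that rose. The pyruvate dehydrogenase genes in this list, Pdha1, Pdhb, Dlat and Pdhx, were not called. Of 20 genes that copy or express mitochondrial DNA 4 rose and 1 fell, a share called below that of all genes. The translation elongation factor genes Tufm (1.09) and Tsfm (1.5) and Tfam, the packaging and transcription factor of mitochondrial DNA (0.39), rose, and Mterfd3, a mitochondrial termination factor family gene, fell by 0.85. Tfam stood at 27.6, 27.2 and 27.2 CPM in knockout skin and at 20.9, 20.2 and 21.4 CPM in wild type skin, the opposite direction to the mitochondrial mRNAs. Of 15 regulators of mitochondrial gene expression 4 rose and 3 fell (26.7% and 20%). Esrra, which encodes an estrogen-related receptor, rose by 1.13 and Ppard by 1.59, while the coactivator gene Ppargc1a fell by 1.39 and Ppara by 1.56 on the log2 scale. The other factors whose motifs were searched are given after their values were seen. Nrf1 rose by 0.48. Gabpa (-0.29), Gabpb1 (0.14), Yy1 (0.13) and the receptor genes Esrrb (-0.41) and Esrrg (-0.12) were not called. Ppargc1a, which is abundant in muscle and brown fat, stood at 2.71, 2.58 and 2.51 CPM in knockout skin and at 4.38, 9.55 and 6.52 CPM in wild type skin.

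Respiratory genes are short, and length moved with the fold change in these libraries. The 83 tested nuclear members with an annotated protein-coding transcript had a median length of 659 bases. The median was 2180.5 for the 14611 tested genes with such a transcript. Among the 1463 shortest of these genes (up to 775 bases, with 51 nuclear members) the median log2 fold change was 0.17, with 34.0% called higher and 17.1% lower. The part of length in the nuclear result was not tested. Scaling by library totals, which moves the median of all genes by -0.155, left 35 nuclear genes higher and 9 lower with a median of 0.27. Without any 1 library, 39 to 44 nuclear genes were higher and 9 to 13 mitochondrial mRNAs lower, and with sex as a covariate 42 and 9.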

How the data were processed

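The authors deposited raw counts by gene symbol for 6 skin libraries, each in a file of its own (3 Tnip1-/- and 3 Tnip1+/+ mice, grouped by the labels' titles). Per the labels' protocols, TRIzol-extracted total RNA went through Ribo-Zero depletion before stranded paired-end sequencing. The build was mm9, and HTSeq, STAR, BWA, CASAVA 1.7, R 3.2.3 and limma were used, per the submitters' processing notes. Settings, strand option and gene annotation are not given in the sources used here, so overlapping genes (mt-Atp8 and mt-Atp6, mt-Nd4l and mt-Nd4), the antisense mt-Nd6 and near-identical nuclear copies could not be told apart with certainty. Beside the 34590 symbols, 5 lines of the counter's own totals, 26.7% to 28.0% of each knockout file and 27.6% to 30.3% of each wild type file, were left out.

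Tests used edgeR 4.0.16 under R 4.3.3 (filterByExpr, TMM factors, quasi-likelihood fit of genotype, Benjamini-Hochberg over all 16691 genes, called at an adjusted p under 0.05). The procedure was tested on simulated data in which far fewer genes changed than the 45.1% called here. That trial cannot show how it performs where so many genes differ. At this depth 3 counts equal 0.116 to 0.154 CPM in knockout and 0.0968 to 0.121 CPM in wild type libraries, for counting error only. Replicates of a group differed beyond counting noise, with a chi-square of 33.1 to 134 per degree of freedom.

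The members and the lists of related genes were chosen with earlier results of these data known. The text names Tnip1, all mitochondrially encoded and Sdh genes, up to 6 called members per complex and direction with the largest log2 fold change and a mean of at least 1 CPM, tissue-restricted forms with their partners, and the 4 genes with the smallest p of each other list, plus genes said to be chosen after their values were seen. Gene lengths and promoters (GENCODE transcripts and RefSeq, of a later mouse build) were matched by symbol. Alternatives were the Wald test and size factors of DESeq2 1.42.0, library totals, upper-quartile factors, limma 3.58.1 voom, robust dispersion, other filters, a replicate block, each library left out in turn, leaving out mitochondrial or muscle marker genes, and a muscle score as covariate. Sex as a covariate and leaving out mitochondrial mRNAs and rRNAs together were added after seeing the data.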

Additional observations from a re-analysis of the deposited data

How the results depend on the processing

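Most directions held among the genes counted here. These were 65 single genes, Tnip1 and the members named above, many of them picked for large changes. Of their 1271 values under alternatives, 1121 kept their direction and call, 114 lost the call, 11 gained one and 25 changed sign. Members outside this count moved too. For example, the calls of Atp5d and Atp5j each ended in 12 of 20 settings, and Ndufv2 (log2 0 in the main fit) changed sign in 6. The muscle score as a covariate changed most: 69 genes were called higher and 66 lower in all, 0 of the members either way in any complex, with medians of 0.56 for nuclear genes, 0.49, 0.55 and 0.58 for nuclear complexes I, II and IV, and -0.17 for mitochondrially encoded genes. Under it, among the 65 genes, mt-Co1 (0.22), mt-Co2 (0.27), mt-Co3 (0.19), mt-Nd3 (0.51), Cox6a2 (0.45), Atp5sl (0.23), Cox4i2 (1.39), Cox6c (0.56), Cox7a2l (0.19), Ndufa3 (0.74) and Uqcrb (0.76) turned sign. The score separates the genotypes, so this fit leaves little difference between them to test.

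With library totals the nuclear medians were 0.27 for all and 0.06, 0.20, 0.67, 0.29 and 0.54 for complexes I to V. There 1 complex II gene was higher and 1 complex III gene was lower. Among the 65 genes Atp5c1 (-0.03), Atp5h (-0.05), Sdha (-0.11) and Uqcrh (-0.11) turned sign. With upper-quartile factors the medians were 0.34 and 0.13, 0.27, 0.74, 0.36 and 0.62, with Sdha and Uqcrh at -0.04 each. With the stricter filter they were 0.37 overall and 0.15, 0.29 and 0.50 for complexes I, II and IV, with Sdha and Uqcrh at -0.02 each. The number of complex I nuclear genes lower was 0 with no filter, with the replicate block and with sex as a covariate. With sex as a covariate 13 members and 4 nuclear genes were lower, and Cox4i2 stood at 0.20. The causes were not tested, beyond the shift of all genes that each scaling brings (-0.155 for library totals, -0.084 for upper-quartile factors).

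The deviations of same-numbered libraries from their group means had correlations of 0.01, -0.21 and 0.19. With 3 libraries per group these values cannot tell whether the replicate numbers pair the animals. With the replicate block 4 nuclear genes were lower instead of 7, 11 mitochondrial mRNAs were lower instead of 13, and 6465 genes were called in all.

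Without 1 library the number of nuclear genes lower was 4 to 9 (4 without wild type replicate 2), of complex I genes lower 0 to 1, of complex III genes lower 0 to 1, and the nuclear median 0.38 to 0.44 (complex I 0.19 to 0.29, complex IV 0.43 to 0.48). Over these 6 fits Cox4i2 ranged from -0.55 to 0.08, Cox6c from -0.27 to 0.03 (above 0 only with wild type replicate 2 left out), Sdha from -0.01 to 0.11 and Uqcrh from -0.04 to 0.15. Depth limits Cox6b2, Cox4i2 and Atp5l-ps1, with 91, 128 and 58 counts in all.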

Other observations

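Of 8 tested carrier and uncoupling genes 2 rose and 2 fell (25.0% each way, against 22.3% higher and 22.7% lower of all genes tested). Slc25a5, the general ADP/ATP carrier gene, had 443, 461 and 448 CPM in knockout skin and 196, 147 and 191 CPM in wild type skin (log2 1.34, SE 0.14, edgeR adjusted p = 0.00102). Slc25a4, the carrier form of muscle and heart, had 196, 142 and 194 CPM in knockout skin and 267, 383 and 269.6 CPM in wild type skin (log2 -0.79, SE 0.20, edgeR adjusted p = 0.0173). The phosphate carrier gene Slc25a3 rose by 1.00 on the log2 scale. Ucp3, an uncoupling protein gene of muscle and brown fat, had 3.10, 0.508 and 3.86 CPM in knockout skin and 12.4, 17.7 and 17.4 CPM in wild type skin (log2 -2.68, SE 0.58). The groups did not overlap for any of these 4 genes, which were named for the smallest p in the list. Of all genes tested, the knockout libraries lay wholly above the wild type libraries for 29.2% and wholly below for 30.5%. Ucp2 (-0.06), Vdac1 (-0.02), Vdac2 (0.37) and Vdac3 (0.39), named after their values were seen, were not called.

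Of 17 fatty acid oxidation genes, which feed electrons to the chain, 3 rose and 5 fell (17.6% and 29.4%, near the shares of all genes), with a median log2 fold change of -0.13, against -0.04 for all genes. Acadm, a medium-chain acyl-CoA dehydrogenase gene, had 70.7, 69.6 and 65.9 CPM in knockout skin and 105, 136 and 106 CPM in wild type skin (log2 -0.75, SE 0.13, edgeR adjusted p = 0.00485). Eci1 fell by 0.94 and Cpt1a, the gate to mitochondrial import of fatty acids, by 0.57 on the log2 scale, while Echs1, an enoyl-CoA hydratase gene, rose by 0.47.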
